A study of Mus musculus with 2 samples.

Results

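The 7 genes Hmgcs1, Sqle, Fdps, Idi1, Cyp51, Insig1 and Srebf2 belong to cholesterol synthesis and its control, and were taken by symbol from the 27998 genes of the count matrices, where all 7 have a row. Hmgcs1, Idi1, Fdps, Sqle and Cyp51 encode synthesis enzymes, and Srebf2 and Insig1 encode regulators. None of the 7 is an uptake receptor, so uptake is described from other genes. RNA was measured by droplet sequencing (10x Genomics) in single brain cells of adult wild type C57BL/6J mice, in 2 libraries. The Repop D5 library pools 6 mice treated with PLX5622 for 14 days, after which 5 days on control diet followed; PLX5622 blocks the CSF1 receptor and so depletes microglia. The CD library pools 4 mice kept on control diet for 19 days. In both, tissue was digested with papain at body temperature and living cells carrying CD11b and CD45 were sorted, a gate that microglia share with other myeloid cells. The comparison is between the sorted cells of these 2 libraries, 1 taken while microglia return after depletion and 1 from undepleted brains.

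Cholesterol is built from acetyl-CoA through mevalonate, isoprenoid units, squalene and lanosterol, and it is needed for new membrane. When the endoplasmic reticulum is low in sterol, SCAP carries the SREBP2 precursor (made from Srebf2) to the Golgi for cleavage, and the freed factor switches on genes of synthesis and uptake. INSIG proteins hold SCAP back when sterol is plentiful, and oxysterols act through them and through the liver X receptors, which drive efflux.

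Each group is a single library, so no test between groups was possible and no p-value is given. UMIs (counted RNA molecules) were summed over the cells of a library and scaled to a library total of 1000000 (CPM). A ratio is the Repop D5 CPM over the CD CPM, with its exact 95% interval. All intervals cover counting error only, and differences between mice and between preparations cannot be told apart from the treatment. Of the barcodes, 553 of 585 in Repop D5 and 609 of 609 in CD were kept, with 11037921 and 6055886 UMIs and medians of 16226 and 5982 UMIs per cell. All 12 microglia markers were detected in both libraries, at a summed 13010 CPM in Repop D5 and 30938 CPM in CD. Markers of other cells also differed. Summed neutrophil markers were at 2104 CPM in Repop D5 and 13160 CPM in CD, border macrophage markers at 119 and 1047 CPM, and astrocyte markers at 20.8 and 188 CPM. All markers of these 3 lists were detected in both libraries except Cd209f, which was at 0 in Repop D5. The highest astrocyte marker alone was at 10.9 CPM in Repop D5 and 167 CPM in CD. Slc1a3, of the astrocyte list, was also a leading gene of a CD cluster of 190 cells in which all 12 microglia markers were detected. The widest gap was in erythroid markers, at 2.72 CPM in Repop D5, with Alas2 at 0, and 1642 CPM in CD. Dendritic cell markers were at 601 CPM in Repop D5, with Ccr9 at 0, and 1212 CPM in CD, with Ccr7 at 0. The highest marker of this list alone was at 589 CPM in Repop D5 and 1180 CPM in CD. The list shares Siglech with the microglia list, so the sum is not a measure of dendritic cells. Oligodendrocyte markers, of a cell type that makes much cholesterol for myelin, were at 73.1 CPM in Repop D5 and 91.3 CPM in CD, with Cldn11 at 0 in CD. The median share of mitochondrial UMIs was 4.78% in Repop D5 and 2.00% in CD. The part of these differences in the results was not tested, beyond values that are also given for the 497 Repop D5 and 461 CD cells outside the clusters led by markers of border macrophages, monocytes, neutrophils or endothelial cells. In those cells the erythroid markers were still at 2.54 CPM in Repop D5 and 2652 CPM in CD. The clusters left out also held microglia RNA. The CD cluster led by border macrophage markers had 29880 CPM of microglia and 2102 CPM of border macrophage markers, against 32709 and 461 CPM in the CD cells outside. The monocyte-led cluster of Repop D5 had 8901 CPM of microglia and 1733 CPM of monocyte markers, against 13364 and 201 CPM outside. Whether these clusters hold microglia was not tested.

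The upstream stretches of Hmgcs1 and Insig1 are shown because they hold the sterol-linked motifs searched for. They are RefSeq sequence of build GRCm38.p6, plus strand, which is the strand of both genes, with motif letters in capitals. Hmgcs1 is at chr13:119690104-119690342 and Insig1 at chr5:28071173-28071326, and both stretches end before the annotated start site.
Hmgcs1: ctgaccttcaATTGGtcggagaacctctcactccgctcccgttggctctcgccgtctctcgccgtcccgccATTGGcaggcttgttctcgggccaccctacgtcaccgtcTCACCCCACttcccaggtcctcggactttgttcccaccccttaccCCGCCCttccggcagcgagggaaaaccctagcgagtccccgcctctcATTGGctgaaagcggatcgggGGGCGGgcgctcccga
Insig1: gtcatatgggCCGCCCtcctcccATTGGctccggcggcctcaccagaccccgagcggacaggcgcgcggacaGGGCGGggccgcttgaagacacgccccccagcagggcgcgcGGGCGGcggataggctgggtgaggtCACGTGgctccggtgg
The letters searched, on both strands of the 300 bases around each start site, were the sterol regulatory element TCACNCCAC, the E-box CACGTG, the CCAAT box CCAAT and the GC box GGGCGG. The sterol regulatory element was found in 1 of the 5 member promoters present in the table, Hmgcs1, starting 137 bases before the start site, and in 1.24% of all 32851 promoters. The E-box was found in 1 of 5, Insig1, starting 101 bases before the start site, and in 7.15% of all promoters. Of 18 promoters of listed synthesis genes, 1 held the sterol regulatory element and 3 the E-box. All 5 (Hmgcs1, Idi1, Cyp51, Insig1, Srebf2) held a CCAAT box and a GC box, against 37.4% and 35.7% of all promoters. A match describes these letters and is not a binding site.

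All 7 genes were higher in Repop D5 than in CD. Their summed level was 551 CPM in Repop D5 and 87.0 CPM in CD, a ratio of 6.34 (5.80 to 6.94). Among the 8463 genes at 10 CPM or more in at least 1 library, 16.8% were 1.5-fold or more higher in Repop D5, and 7 of 7 members were. The median log2 ratio was 2.99 over the members and -0.40 over all these genes. Outside the other-cell clusters the summed level was 567 CPM in Repop D5 and 82.6 CPM in CD, a ratio of 6.87 (6.12 to 7.73), with 7 of 7 members past 1.5-fold against 17.6% of genes. The plot of levels in the 2 libraries shows that no gene's counting intervals overlap.

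**Figure D1:**
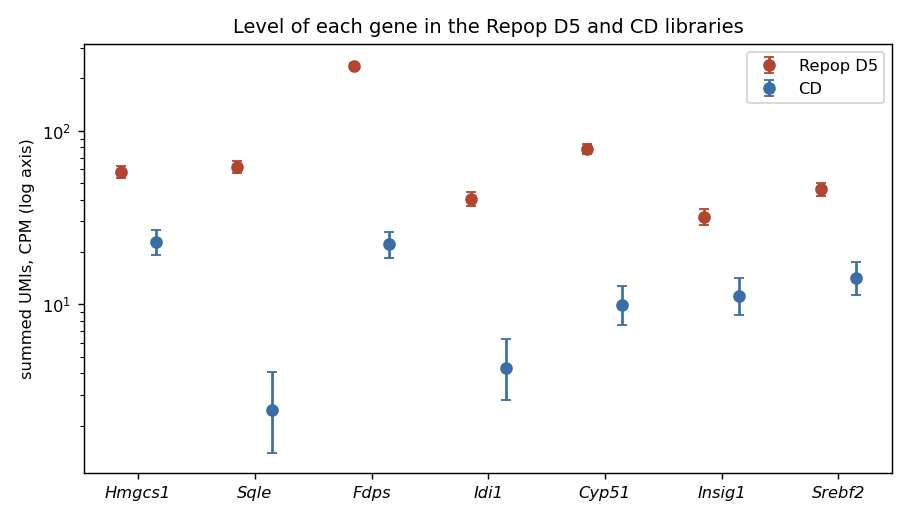
Level of each of the 7 genes in the Repop D5 library (red, left point) and the CD library (blue, right point), in CPM on a log axis; bars are exact 95% counting intervals of 1 library each. Every Repop D5 point lies above its CD point, with Sqle farthest apart at 62.0 against 2.48 CPM and Hmgcs1 closest at 58.0 against 22.8 CPM.

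Hmgcs1 (ENSMUSG00000093930, chr13:119690379-119708260, mm10, plus strand) encodes the cytosolic synthase that makes HMG-CoA, the precursor of mevalonate. It had 640 UMIs, 58.0 CPM, in Repop D5 and 138 UMIs, 22.8 CPM, in CD, a ratio of 2.54 (2.11 to 3.08). This was the smallest of the 7 ratios, and it was 2.96 (2.32 to 3.82) outside the other-cell clusters, at 59.1 CPM in Repop D5 and 20.0 CPM in CD.

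Idi1 (ENSMUSG00000058258, chr13:8885501-8892451, plus strand) interconverts the building blocks of all isoprenoids. It had 447 UMIs, 40.5 CPM, in Repop D5 and 26 UMIs, 4.29 CPM, in CD, a ratio of 9.43 (6.35 to 14.6). Fdps (ENSMUSG00000059743, chr3:89093588-89101959, minus strand) joins them into farnesyl diphosphate, the branch point to sterols and to protein prenylation. It had 2588 UMIs, 234 CPM, in Repop D5 and 134 UMIs, 22.1 CPM, in CD, a ratio of 10.6 (8.90 to 12.7). Counts of both genes carry an uncertainty from copies. Fdps shares its strand and 929 identical bases with the overlapping model Gm43738, which was itself counted at 11 UMIs in Repop D5 and 0 in CD, and it has processed pseudogenes of up to 98.9% identity (Gm3571). Idi1 has a processed pseudogene identical over 684 bases (Gm13502).

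Sqle (ENSMUSG00000022351, chr15:59315077-59331192, plus strand) encodes squalene epoxidase, the first oxygen-adding step and a known control point of the sterol branch. It had 684 UMIs, 62.0 CPM, in Repop D5 and 15 UMIs, 2.48 CPM, in CD, a ratio of 25.0 (15.1 to 44.9), the largest of the 7. Outside the other-cell clusters it was at 64.3 CPM in Repop D5 and 1.89 CPM in CD, where 7 UMIs were left. Cyp51 (ENSMUSG00000001467, chr5:4081145-4104746, minus strand) encodes lanosterol demethylase. It had 869 UMIs, 78.7 CPM, in Repop D5 and 60 UMIs, 9.91 CPM, in CD, a ratio of 7.95 (6.11 to 10.5). Cyp51 overlaps Akap9 on the opposite strand, and whether counting used strand is not given in the sources used here. Akap9 differed the other way, at 48.3 CPM in Repop D5 and 96.8 CPM in CD. When every cell was thinned to 3000 UMIs, which gives cells equal weight, the ratio of Sqle was 14.5 (6.79 to 37.2) and that of Fdps 6.87 (5.17 to 9.27).

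Srebf2 (ENSMUSG00000022463, chr15:82147181-82205379, plus strand), which encodes SREBP2, had 508 UMIs, 46.0 CPM, in Repop D5 and 86 UMIs, 14.2 CPM, in CD, a ratio of 3.24 (2.57 to 4.12). Outside the other-cell clusters its ratio was 4.29 (3.11 to 6.05). Insig1 (ENSMUSG00000045294, chr5:28071363-28078662, plus strand), which encodes the retention protein and is itself a target of SREBP2, had 351 UMIs, 31.8 CPM, in Repop D5 and 68 UMIs, 11.2 CPM, in CD, a ratio of 2.83 (2.18 to 3.73). Both regulators were above 2-fold, and their ratios lay under those of Sqle, Fdps, Idi1 and Cyp51. Summed over every kept cell, their intervals did not overlap those of these enzymes, while the interval of Hmgcs1 overlapped both. This separation did not hold throughout. Outside the other-cell clusters the interval of Srebf2 overlapped that of Cyp51 (5.20 to 9.91). In cells thinned to 3000 UMIs, Srebf2 (2.16 to 5.83) overlapped Cyp51 (4.14 to 11.0), Idi1 and Fdps, and Insig1 (1.65 to 5.12) overlapped Cyp51 and Idi1.

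The rest of the synthesis pathway was higher as well, along its whole length. Of 20 listed genes, 19 reached the 10 CPM minimum, 17 were 1.5-fold or more higher in Repop D5 and 0 were lower by as much, against 16.8% and 42.1% of all genes. Their median log2 ratio was 1.49, and that of all genes was -0.40. The members make up 5 of the 17. Fdft1, squalene synthase, was at 25.6 CPM in Repop D5 and 5.28 CPM in CD (ratio 4.83, 3.35 to 7.21). Msmo1, which removes methyl groups after the Cyp51 step, was at 81.3 CPM in Repop D5 and 28.6 CPM in CD, a ratio of 2.84 (2.42 to 3.37). The 2 measured genes short of 1.5-fold were Nsdhl at 1.49 (1.13 to 2.00) and Ebp at 1.39 (1.25 to 1.53), and Hsd17b7 stayed under the CPM minimum. Among the genes in the plot of the pathway in order, the largest ratios are those of Sqle, Fdps, Idi1 and Cyp51.

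**Figure D2:**
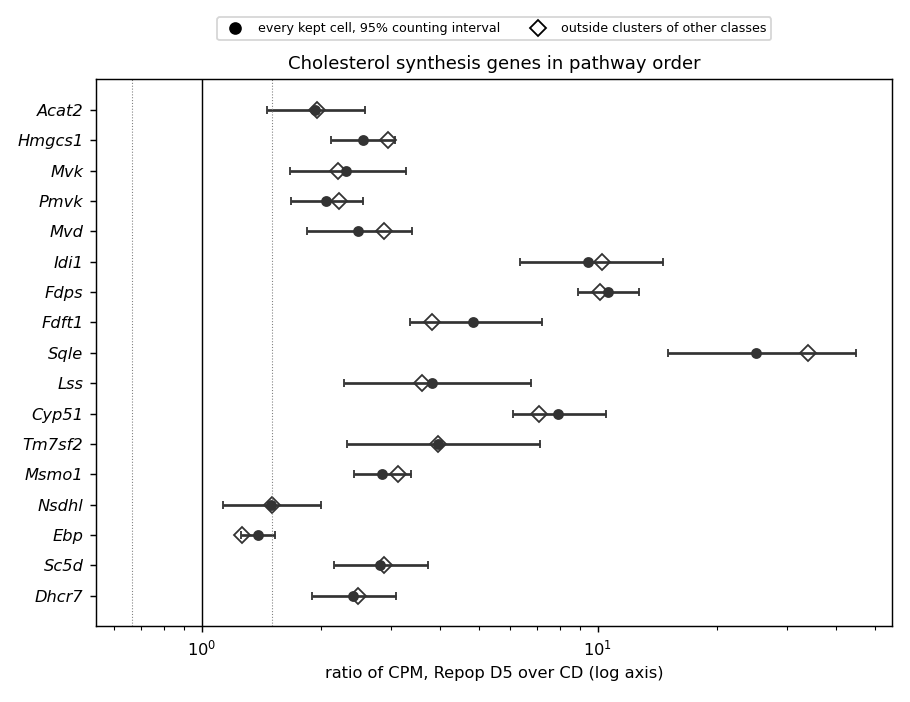
Ratio of CPM, Repop D5 over CD, for 17 of the 19 measured cholesterol synthesis genes in pathway order from top to bottom, on a log axis; filled points sum every kept cell, with 95% counting intervals, and open diamonds sum the cells outside clusters of other classes. Dotted lines mark 1.5-fold in either direction, and all 17 filled points lie right of 1, between Ebp at 1.39 and Sqle at 25.0.

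The SREBP2 partners as a list stayed close to the background. Of 10 listed regulators, 2 (Srebf2 and Insig1) were 1.5-fold or more higher in Repop D5 and 5 were lower, near the shares of all genes (16.8% and 42.1%). Insig2, the second retention gene, was at 32.4 CPM in Repop D5 and 59.1 CPM in CD (ratio 0.55, 0.47 to 0.64), opposite to Insig1. Scap, the escort, was at 13.8 and 23.1 CPM (0.60, 0.47 to 0.75), and Mbtps2, a protease that frees the factor, at 16.6 and 31.0 CPM (0.53, 0.43 to 0.66). Rnf139, a ubiquitin ligase of the same membrane, had a ratio of 0.54. These lower values depend on the scaling. Scaling by a trimmed mean of ratios adds 0.46 to every log2 ratio, leaves Insig2, Scap, Mbtps2 and Rnf139 below 1, and then 0 of 10 regulators are lower by 1.5-fold and 3 are higher. The median log2 ratio of all genes is 0.08 under that scaling, with 30.2% of genes higher and 21.7% lower.

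Of 12 measured genes of uptake and endosomal handling, 5 were 1.5-fold or more higher in Repop D5 and 3 were lower, against 16.8% and 42.1% of all genes. The median log2 ratio of the 12 was -0.21, and 0.24 under the trimmed-mean scaling. Stard4, a soluble sterol carrier, was at 24.6 CPM in Repop D5 and 3.63 CPM in CD (ratio 6.78, 4.39 to 11.0). The scavenger receptors Cd36, Scarb1 and Msr1 had ratios of 11.3, 2.02 and 1.59. Outside the other-cell clusters Cd36 was at 240 CPM in Repop D5 and 8.64 CPM in CD, a ratio of 27.8 (19.7 to 40.8), and Msr1 was at 20.5 and 4.86 CPM, a ratio of 4.23 (2.61 to 7.27). Npc1, which moves cholesterol out of late endosomes, was at 49.2 CPM in Repop D5 and 110 CPM in CD (0.45, 0.40 to 0.50), Stard3 had a ratio of 0.46, and Soat1, which esterifies cholesterol for storage, one of 0.55. Lrp1 at 0.91 and Npc2 at 0.82 turned above 1 under the trimmed-mean scaling, and Lrp1 also when mitochondrial and ribosomal protein genes were left out of the totals.

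Genes of the efflux and oxysterol list were lower in Repop D5 with 1 exception. Of 9 measured genes, 8 were lower by 1.5-fold or more and 1 was higher, against 42.1% and 16.8% of all genes, with a median log2 ratio of -1.86. Abca1 and Abcg1, the transporters that load cholesterol onto lipoproteins, were at 39.5 and 13.9 CPM in Repop D5 and at 199 and 85.0 CPM in CD, ratios of 0.20 (0.18 to 0.22) and 0.16 (0.14 to 0.20). Mylip, which encodes a ubiquitin ligase that limits cholesterol uptake, was at 38.3 CPM in Repop D5 and 223 CPM in CD, a ratio of 0.17 (0.15 to 0.19). These 3 genes are textbook targets of the liver X receptors. Ch25h, which makes 25-hydroxycholesterol, was the exception, at 73.6 CPM in Repop D5 and 2.15 CPM in CD. With trimmed-mean scaling 6 of the 9 stayed lower by 1.5-fold, against 21.7% of all genes. Osbp and Nr1h2 were no longer lower by as much, and all 8 remained below 1. Outside the other-cell clusters 7 of 9 were lower by 1.5-fold, against 40.5% of genes.

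**Figure D3:**
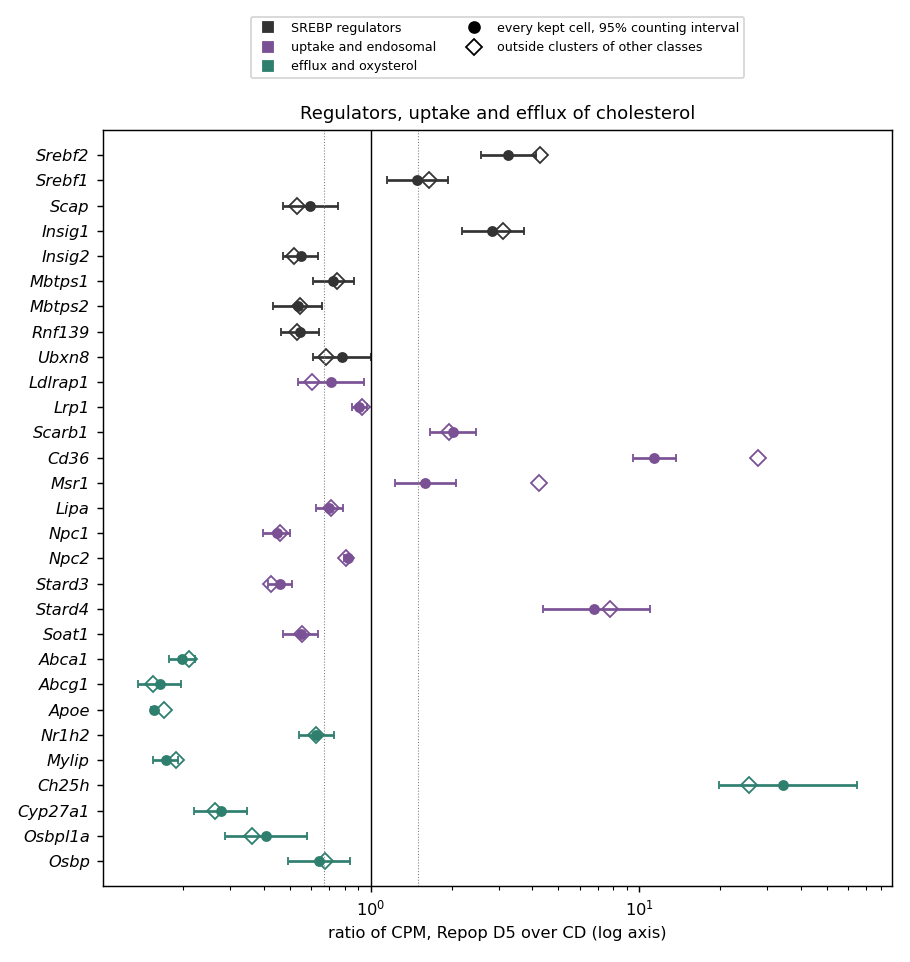
Ratio of CPM, Repop D5 over CD, for measured genes of SREBP regulation (black), uptake and endosomal cholesterol (purple) and efflux and oxysterols (green), on a log axis; filled points sum every kept cell, with 95% counting intervals, and open diamonds sum the cells outside clusters of other classes. Srebf2, Insig1, Stard4, Cd36 and Ch25h lie to the right, while 8 of the 9 efflux and oxysterol genes lie left of the 1.5-fold line.

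Of 6 measured fatty acid synthesis genes, 5 were 1.5-fold or more higher in Repop D5 and 0 were lower, against 16.8% and 42.1% of all genes (median log2 ratio 1.09). Scd2, a desaturase, was at 154 CPM in Repop D5 and 40.3 CPM in CD (ratio 3.82, 3.34 to 4.39), and Fasn, fatty acid synthase, at 23.4 and 8.75 CPM (2.67, 1.98 to 3.66). Of 6 measured genes of the isoprenoid side branch, which uses the product of Fdps, 0 were higher by 1.5-fold and 1 was lower, both under the shares of all genes (16.8% and 42.1%). The lower one was Pggt1b, a subunit of the enzyme that attaches geranylgeranyl groups to proteins, at 7.70 CPM in Repop D5 and 13.7 CPM in CD (ratio 0.56, 0.41 to 0.77). Ggps1, which extends farnesyl diphosphate, was at 9.42 CPM in Repop D5 and 14.0 CPM in CD, a ratio of 0.67 (0.50 to 0.90). Under the trimmed-mean scaling 2 of these 6 were higher and 0 lower, against 30.2% and 21.7% of all genes.

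Within Repop D5 the 7 genes were carried by barcodes of every phase call, at the highest level in S. Phases were called from 43 S and 54 G2 and M genes, none of them a member, in cells thinned to 3000 UMIs. They gave 228 S barcodes (41.2%), 165 G2 and M barcodes (29.8%) and 160 other barcodes (28.9%). These numbers depend on the rule. Called from the 99th percentile of CD cells there were 107 S, 208 G2 and M and 238 other barcodes, and with Repop D5 cells scored alone at 7500 UMIs 73, 173 and 253. In CD 40 S, 4 G2 and M and 555 other barcodes were called among the 599 cells deep enough. The summed level of the 7 genes was 634 CPM in S, 539 CPM in G2 and M, 402 CPM in the other barcodes and 87.0 CPM in CD. Against the other barcodes the ratio was 1.58 (1.47 to 1.70) for S and 1.34 (1.24 to 1.45) for G2 and M, and S was 1.18 (1.11 to 1.24) times G2 and M. The other barcodes alone were 4.62 (4.15 to 5.15) times CD, with 7 of 7 members past 1.5-fold against 12.8% of genes.

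Cycle RNA was present in the other barcodes too, and many calls lay near a limit. Mki67, a proliferation gene, was at 89.3 CPM in S, 214 CPM in G2 and M, 42.7 CPM in the other barcodes and 1.49 CPM in CD. It is among the G2 and M genes used for the calls, so its order across them is not independent of the calls. Of 553 Repop D5 barcodes, 211 scored within 0.05 of a limit between phases. Median depth was 19000 UMIs in S, 19811 in G2 and M and 12028.5 in the other barcodes. The part of these differences in the phase ratios was not tested beyond the thinned value, which was 1.80 (1.5 to 2.17) for S and 1.57 (1.29 to 1.92) for G2 and M.

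By gene, Fdps was at 283 CPM in S, 224 CPM in G2 and M and 153 CPM in the other barcodes, a ratio of S to other of 1.85 (1.65 to 2.09). Idi1 was at 48.5, 37.5 and 28.9 CPM in S, G2 and M, and other barcodes (S to other 1.68, 1.28 to 2.22). These were the 2 of 7 members at 1.5-fold or more in S over other, against 11.0% of genes. Cyp51 at 92.0, 71.8 and 62.4 CPM and Hmgcs1 at 66.9, 53.7 and 46.5 CPM had S to other ratios of 1.47 (1.22 to 1.79) and 1.44 (1.16 to 1.80). Sqle (64.2, 67.5 and 48.6 CPM), Insig1 (32.9, 34.6 and 25.1 CPM) and Srebf2 (46.8, 49.99 and 38.1 CPM) had their highest values in G2 and M, within the counting intervals of S. The S to other intervals of Insig1 (0.97 to 1.79) and Srebf2 (0.96 to 1.58) included 1. In G2 and M over other, 0 of 7 members reached 1.5-fold, against 12.1% of genes, with ratios between 1.15 for Cyp51 and 1.47 for Fdps. In the other barcodes Sqle was still 19.6 times (11.4 to 36.2) and Hmgcs1 2.04 times (1.58 to 2.64) its CD level.

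Of 19 measured synthesis genes, 8 were at 1.5-fold or more in S over other, 2 in G2 and M over other, and 14 of 18 in the other barcodes over CD, against 11.0%, 12.1% and 12.8% of all genes. The count in G2 and M is about that of all genes. Fdft1 was at 30.3 CPM in S, 24.5 CPM in G2 and M, 17.6 CPM in the other barcodes and 5.28 CPM in CD, a ratio of other to CD of 3.33 (2.05 to 5.45). The sterol carrier Stard4 was at 28.8, 23.9 and 17.2 CPM in S, G2 and M, and other barcodes and at 3.63 CPM in CD, a ratio of other to CD of 4.73 (2.75 to 8.34).

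**Figure D4:**
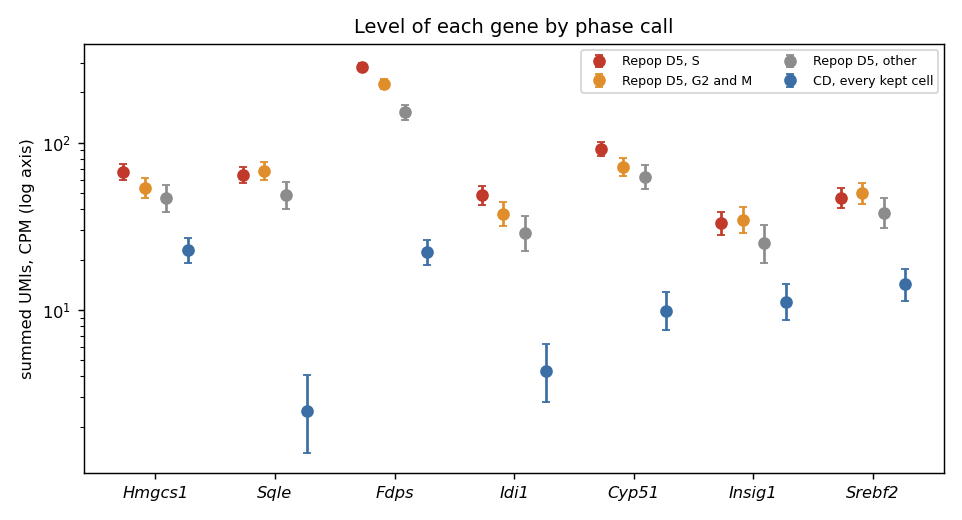
Level of each gene in Repop D5 barcodes called S (red), G2 and M (orange) and other (grey) and in every kept CD cell (blue), in CPM on a log axis with exact 95% counting intervals. For all 7 genes the other barcodes lie lowest of the 3 Repop D5 sets and above CD, as for Fdps at 283, 224, 153 and 22.1 CPM.

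Of the 6087 UMIs of the 7 genes in Repop D5, 50.9% (49.7 to 52.2) were in S barcodes, 33.3% (32.1 to 34.5) in G2 and M barcodes and 15.8% in the others, while these barcodes held 44.3%, 34.1% and 21.6% of all UMIs. Under the CD percentile rule S barcodes held 27.6% and G2 and M barcodes 45.8% of the genes' UMIs, and scored alone 19.6% and 43.0%, while the level stayed highest in S, at 717 CPM in S and 559 CPM in G2 and M by the CD percentile and at 746 and 560 CPM scored alone. The share of a single gene's UMIs in S ran between 45.1% for Srebf2 and 53.4% for Fdps. When Repop D5 cells were instead split into 4 groups of 138 or 139 by their share of cycle gene UMIs, a split chosen after values were seen, the 7 genes were at 315, 524, 655 and 599 CPM, lowest to highest cycle share. The level was lowest in the cells with the least cycle RNA. These cells were also shallower, at a median of 11903.5 UMIs against 22215 in the cells with the most. Of them, 108 of 138 lay outside the other-cell clusters, against 137 of 139. The part of this in the levels was not tested. The level was no higher in the cells with the most cycle RNA, where Mki67 was at 235 CPM, than in those just below them, at 105 CPM. Mki67 is itself counted in the cycle share.

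Detection per barcode was higher in Repop D5 than in CD, and within Repop D5 it was lowest in the other barcodes. The order of S against G2 and M differed between thinned and unthinned shares. With every cell thinned to 3000 UMIs, 374 of 553 Repop D5 barcodes (67.6%, 63.6 to 71.5) and 134 of 599 CD barcodes (22.4%, 19.1 to 25.9) held a UMI of any of the 7 genes; unthinned, the shares were 93.1% and 47.0% at median depths of 16226 and 5982 UMIs. By phase the thinned share was 74.6% in S, 71.5% in G2 and M and 53.1% in the other barcodes, against unthinned shares of 96.5%, 97.0% and 84.4%. No cell type here is known to lack the pathway, so no clean background share exists; in the neutrophil-like cells 2 of 7 in Repop D5 and 3 of 22 in CD held such a UMI after thinning, at median depths of 5416 and 4804 UMIs. At least 3 of the 7 genes were found together in 78 of 553 thinned Repop D5 barcodes (14.1%) and in 0 of 599 CD barcodes, where a count of 0 allows (as 3 counts) a share of up to 0.501% at that depth. Unthinned, it was 381 of 553 Repop D5 barcodes (68.9%) and 39 of 609 CD barcodes (6.40%). Per gene, thinned detection ran between 8.14% (Insig1) and 41.6% (Fdps) of Repop D5 barcodes and between 0.835% (Sqle) and 7.01% (Fdps) of CD barcodes.

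**Figure D5:**
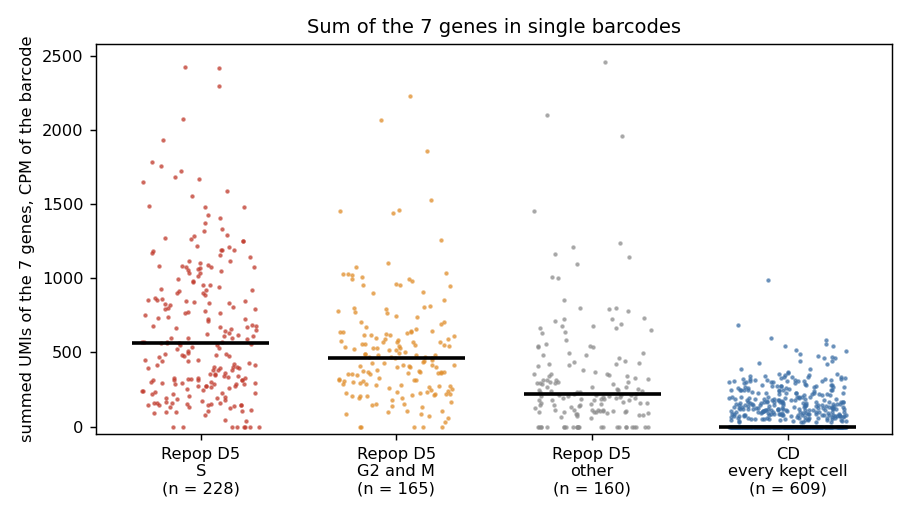
Summed UMIs of the 7 genes in each kept barcode as CPM of that barcode, for Repop D5 barcodes called S, G2 and M and other and for every CD barcode; lines are medians. The medians are 562, 465, 222 and 0 CPM, and 323 of 609 CD barcodes hold no such UMI. The CD barcodes are also shallower. With every cell thinned to 3000 UMIs, 67.6% of Repop D5 and 22.4% of CD barcodes held such a UMI.

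Single barcodes varied widely. The summed level per barcode had a median of 408 CPM in Repop D5 (quartiles 206 and 726) and of 0 CPM in CD (quartiles 0 and 145), and 38 of 553 Repop D5 barcodes held no UMI of the 7 genes. Clusters of Repop D5 cells also differed, given here as a description because the genes took part in the clustering. The cluster led by Cenpe and Top2a (205 cells) was at 597 CPM, the one led by Ch25h and Ass1 (179 cells) at 596 CPM and the one led by Tnf and Il1b (63 cells) at 537 CPM. The monocyte-like cluster (47 cells) was at 351 CPM, and the cluster led by Ifit3 and Oas1a (49 cells), genes of the interferon response, was lowest among clusters of more than 10 cells at 131 CPM (100 to 168). In CD the border macrophage-like cluster (118 cells) was at 96.0 CPM, and the CD clusters led by Lag3 were at 78.8 and 69.0 CPM. The CD cluster led by H2-Aa and Cd74 (50 cells) was at 114 CPM (91.7 to 140). The names monocyte-like and border macrophage-like rest on leading genes, and both clusters also held microglia markers.

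The phase sets differed in their makeup by cluster, and the part of this in the phase ratios was not tested beyond the values below. Among the 160 other barcodes, 35 were of the Ifit3 cluster, at 131 CPM, and 29 were monocyte-like, at 285 CPM. Among the 228 S barcodes 11 and 15 were of these clusters, and among the 165 G2 and M barcodes 3 and 3. Inside the Ch25h cluster the 103 S barcodes were at 638 CPM (603 to 674) and the 61 other barcodes at 540 CPM (496 to 586), and inside the Tnf cluster the 26 S barcodes were at 609 CPM (549 to 673) and the 22 other barcodes at 285 CPM (233 to 347). S was above other in both of the clusters that held at least 20 barcodes of each, by an amount that differed between them.

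Across Repop D5 barcodes the 7 genes went together only weakly. Over the 21 pairs, Pearson's r across 499 cells thinned to 7500 UMIs was between 0.006 and 0.28 with a median of 0.14, the highest being Sqle with Cyp51. The genes most like the members' sum over 553 thinned cells, among 2517 genes, were Hsp90b1 (r = 0.24), Eif5a, Hspa5, Tuba1b, Cycs, Gapdh, mt-Nd1, Emg1, Tuba1a and Ccl12 (r = 0.19). These points share 1 library, counts are sparse and all values are weak, so the order among them is not read further.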

How the data were processed

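In all, 2 libraries of single brain cells were analysed. The build mm10 and Cell Ranger 2.1.0 are named in the submitters' processing notes, per the labels; the annotation release, the cell-calling rule and strand use are not given in the sources used here. The authors deposited whole-number UMI counts for each gene in each barcode, 1 matrix per library, with no normalization. In the authors' pooled matrix, an alternative here, Repop D5 counts are 96.8% of those in its own matrix.

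Kept were cells in which 500 genes or more were found and mitochondrial genes made up less than 10% of UMIs, and 1 barcode occurs in both libraries. Counts were summed over kept cells and scaled to CPM. Ratios have exact conditional binomial 95% intervals, levels exact Poisson intervals and shares Clopper-Pearson intervals. The ratio and its interval were tried on simulated Poisson counts drawn from the CD means, some of them changed by a known fold. This is the model the interval assumes. Variation between cells, mice or preparations was not simulated. A gene counts as higher or lower past 1.5-fold if it had 10 CPM in 1 library. A floor of 3 counts is 0.272 CPM in Repop D5 and 0.495 CPM in CD. Clusters (11) came from scanpy 1.11.5 (2000 variable genes, 30 components, 15 neighbours, Leiden at resolution 1, leidenalg 0.10.2) in Python 3.11.15, named "X-like" from marker lists. The microglia-like clusters together did not qualify for comparison as a class, because 3 of them had a leading gene that marks another class and none that marks microglia, so all kept cells were summed. No doublets were removed; Scrublet called 12 Repop D5 and 3 CD cells (0.493% of CD). Phases came from scanpy's cycle scores on thinned cells. Coordinates of genes are those of GENCODE M21 and may differ from the authors' annotation.

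The members and lists were chosen with earlier results of these data known. Named were all 7 members, measured genes of the fixed lists, the 10 most correlated genes, and Mki67, itself a gene of the G2 and M list, as a gauge of cycle RNA. Akap9 and Gm43738 were named as overlapping genes, and cluster leading genes to label clusters. Some cell type markers were named where the marker sums are described. Some genes of the fixed lists are not reported here by name, but stay in the counts and medians.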

Additional observations from a re-analysis of the deposited data

How the results depend on the processing

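No paired analysis was possible because each group is 1 library. Over 10 alternatives the 7 members' ratios gave 70 values, of which 61 lay within the interval of the value reported, 9 outside it and 0 on the other side of 1, the lowest being 2.55. The summed ratio of 6.34 was 8.70 with trimmed-mean scaling, 7.63 with totals without mitochondrial and ribosomal protein genes and 5.52 in cells thinned to 3000 UMIs. With a gene minimum of 50 CPM, 4 members and 5 synthesis genes were counted as higher, since fewer genes were tested. For S over other barcodes the ratio was 1.93 with equal weight per cell, 1.80 in thinned cells, 1.71 without the 5% of cells with most UMIs and 1.76 with phase scores from unthinned counts. For G2 and M over other barcodes it was 1.53, 1.57 and 1.45 under the first 3 of these. It was 1.14 with Repop D5 cells scored alone at 7500 UMIs, and the cause was not tested. Other settings kept the S ratio within the interval of its main value, 1.58. It was 1.5 outside the other-cell clusters, 1.51 with Repop D5 cells scored alone and 1.65 by the CD percentile. It was 1.55 both without mitochondrial and ribosomal protein genes in the totals and without cells called by Scrublet. For G2 and M, against 1.34, the remaining settings ran between 1.26 (outside the other-cell clusters) and 1.42 (unthinned phase scores). The share of barcodes with a member UMI was 93.1% in Repop D5 and 47.0% in CD without thinning, and 55.2% and 15.8% at 2000 UMIs. Depth limits CD values most: Sqle rests on 15 UMIs there.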
